A study of Mus musculus with 14 samples.

Results

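Serpins are proteins of a shared fold. Most of them block serine or cysteine proteases by trapping the protease in an irreversible complex, and some, such as the collagen chaperone Serpinh1, have no protease target. In stratified epithelia, clade B serpins stay mainly inside or around keratinocytes and are coded by gene clusters, while the clade A cluster holds α1-antitrypsin (Serpina1) and α1-antichymotrypsin-like (Serpina3) genes known best from plasma and multiplied in rodents. Members were all rows of the expression table whose symbol is Serpin followed by a clade letter from a to i, a number and at most 1 letter, which gave 64 of 54332 genes. The rule used no expression value, and 5 pseudogene rows with a Serpin name and another suffix were left out. Of the 64 genes, 24 lie on chromosome 12 (clade A), 16 on chromosome 13 (clade B) and 14 on chromosome 1, of which 12 are a clade B cluster.

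RNA was measured in epidermal stem cells (EpdSCs) of back skin from CD1 male mice of genotype K14rtTA; TRE-myc-Sox9, in which the Krt14 promoter drives the DOX-dependent activator rtTA and the activator switches on MYC-tagged Sox9. All groups carry both transgenes. D0 cells came from mice at P21, at the start of DOX treatment, and W1, W2 and W6 cells from mice at P28, P35 and P63 after 1, 2 and 6 weeks on DOX. W12 cells came from neonatal skin of this genotype grafted onto immunocompromised (Nude) female hosts and induced for 12 weeks. Each timepoint had 2 replicate libraries of cells sorted as negative for CD31, CD45, CD117 and CD140a, high for CD49f, negative for CD34 and high for Ly6A. Age changes with time on DOX and only W12 was grafted, so these cannot be told apart from time under SOX9, and RNA of mice without the Sox9 transgene was not analysed here. Values are TPM, transcript abundance per length relative to a fixed total per library, so depth is unknown and neither a counting interval nor a lowest detectable level can be given.

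The transgene transcript was at 89.6 and 45.6 TPM at D0 and at 606 or more in every later library. All 7 basal epidermal markers (Krt5, Krt14 and others) were present in every library, with summed levels of 35134 TPM or more. At W12 6 of the 7 (Krt5, Krt15, Trp63, Itga6, Itgb4 and Col17a1) lay below both D0 libraries and Krt14 above them. Krt15 stood at 322 and 242 TPM by W12, against 11241 and 11928 at D0. D0 replicate 2 did not match its label for sex, with Xist at 4.61 TPM and Ddx3y of the Y chromosome at 0.0278, and both W12 libraries held Xist (5.51 and 3.50 TPM) together with Ddx3y (11.0 and 12.9). Most counts against D0, and the W12 results of members that passed the test there against D0, are therefore also given without D0 replicate 2. The 4 endothelial markers summed to at most 1.42 TPM in libraries up to W6 and to 51.8 and 112 TPM at W12, although CD31 (Pecam1) was gated out. The fibroblast marker Dcn was at 51.2 TPM in W6 replicate 2 and at 13.2 and 27.2 at W12, against 2.06 or less in the other libraries, while Col1a1, Col3a1 and Pdgfra stayed under 0.8 TPM in all libraries.

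The promoters of 5 members on which the results turn are shown here, as 300 bases from 250 before to 50 after the RefSeq start on GRCm38.p6, read 5′ to 3′ along the gene. Serpinb2 (chr1:107511173-107511472, plus strand), Serpinb7 (chr1:107422439-107422738, plus) and Serpinb8 (chr1:107589756-107590055, plus) are cluster members that were lower after induction, and Serpinb3b (chr1:107161065-107161364, minus) is a member of the same cluster that was higher. Serpinf1 (chr11:75422574-75422873, minus) was near 0 up to W2 and higher at W6 and W12. In the chromosome 1 genes capitals mark TGANTCA, where N is any base, a loose pattern that covers the letters bound by AP-1 factors. It is called the AP-1 letters here. In Serpinf1 capitals mark ACAATG, a core of the letters bound by SOX factors.
Serpinb2: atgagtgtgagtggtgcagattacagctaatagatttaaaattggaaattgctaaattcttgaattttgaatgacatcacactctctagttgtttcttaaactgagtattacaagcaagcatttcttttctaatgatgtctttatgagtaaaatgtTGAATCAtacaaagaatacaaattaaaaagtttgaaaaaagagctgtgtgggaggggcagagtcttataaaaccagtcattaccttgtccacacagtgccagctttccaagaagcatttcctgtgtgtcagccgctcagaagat
Serpinb7: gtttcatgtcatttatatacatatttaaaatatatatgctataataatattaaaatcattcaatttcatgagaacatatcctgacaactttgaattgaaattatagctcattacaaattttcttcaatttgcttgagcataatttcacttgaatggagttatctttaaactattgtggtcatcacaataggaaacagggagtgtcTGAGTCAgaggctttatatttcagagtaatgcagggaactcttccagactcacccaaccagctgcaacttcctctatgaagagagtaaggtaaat
Serpinb8: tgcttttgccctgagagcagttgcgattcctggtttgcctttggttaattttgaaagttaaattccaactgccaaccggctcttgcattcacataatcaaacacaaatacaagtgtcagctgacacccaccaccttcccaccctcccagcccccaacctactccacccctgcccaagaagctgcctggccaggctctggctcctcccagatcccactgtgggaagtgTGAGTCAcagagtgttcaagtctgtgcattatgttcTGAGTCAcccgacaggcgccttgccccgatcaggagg
Serpinb3b: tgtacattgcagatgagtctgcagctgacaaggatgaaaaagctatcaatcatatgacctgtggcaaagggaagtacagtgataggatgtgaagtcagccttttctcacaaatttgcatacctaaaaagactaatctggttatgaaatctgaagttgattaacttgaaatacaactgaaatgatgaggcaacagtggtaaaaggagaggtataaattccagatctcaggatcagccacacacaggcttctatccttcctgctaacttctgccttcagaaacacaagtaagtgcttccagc
Serpinf1: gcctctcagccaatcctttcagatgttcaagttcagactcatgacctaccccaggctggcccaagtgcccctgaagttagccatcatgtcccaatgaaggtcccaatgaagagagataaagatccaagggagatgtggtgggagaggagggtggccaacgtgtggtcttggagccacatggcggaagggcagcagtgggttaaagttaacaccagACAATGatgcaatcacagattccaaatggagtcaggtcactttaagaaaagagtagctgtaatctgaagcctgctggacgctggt
The AP-1 letters, a pattern that reads the same on both strands, began 94 bases before the Serpinb2 start shown and 181 before its other RefSeq start. They began 45 bases before the start of Serpinb7, and 23 before and 14 after that of Serpinb8. Of 32851 RefSeq promoters of this length, 7.81% held them, and 8.97% of the 27025 genes they belong to had at least 1 promoter that did. Promoters were given for 54 of the 64 members and for 23 of the 28 tested. In the chromosome 1 clade B cluster 7 of 11 genes with a promoter held the AP-1 letters (Serpinb2, Serpinb5, Serpinb7, Serpinb8, Serpinb10, Serpinb11 and Serpinb12), and the other 4 were Serpinb3a, Serpinb3b, Serpinb3c and Serpinb3d. On chromosome 12, 4 of 18 held them, all of them Serpina1 genes, and on chromosome 13, 0 of 15. In the chromosome 1 genes N was G in Serpinb7 and Serpinb8. It was A or T in Serpinb2, Serpinb5, Serpinb10, Serpinb11 and Serpinb12. The SOX letters, searched on both strands, were in 12.6% of promoters, in 14.3% of genes with a promoter, and in those of 6 members (Serpina3b, Serpina5, Serpinb1c, Serpinb6d, Serpinb9c and Serpinf1). Of the 9 tested genes with the AP-1 letters, 3 were lower at W12 than at D0, and 3 were higher (Serpinb5, Serpina1a and Serpina1b). The other 3 did not pass the test there. Of all tested genes, 25.1% were lower and 17.9% higher. Serpina1a and Serpina1b passed the filter on mean level, given below, only through W12. The lower calls of Serpinb7 and Serpinb8 did not hold without D0 replicate 2. The letters were searched with the expression results known and are a description of these windows only.

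A member was called detected at a timepoint when both libraries held at least 1 TPM. By this rule 20 members were detected at each of D0, W1 and W2, 21 at W6 and 30 at W12, with 14 detected at every timepoint, 32 at 1 timepoint or more and 5 at W12 alone. The summed level of the 64 genes was 4249 and 6221 TPM at D0, 3241 and 3056 at W1, 2395 and 2357 at W2, 1512 and 1933 at W6, and 3281 and 3028 at W12. The family total was thus lowest at W6 and returned by W12 to about the level of W1. Serpinb2 alone made up 34.7% and 43% of it at D0, and 9.95% and 10.1% at W2. Together with Serpina3i, Serpina3h, Serpinb5 and Serpinb6a it made up 79.1% to 89% of the family total in each library.

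**Figure D1:**
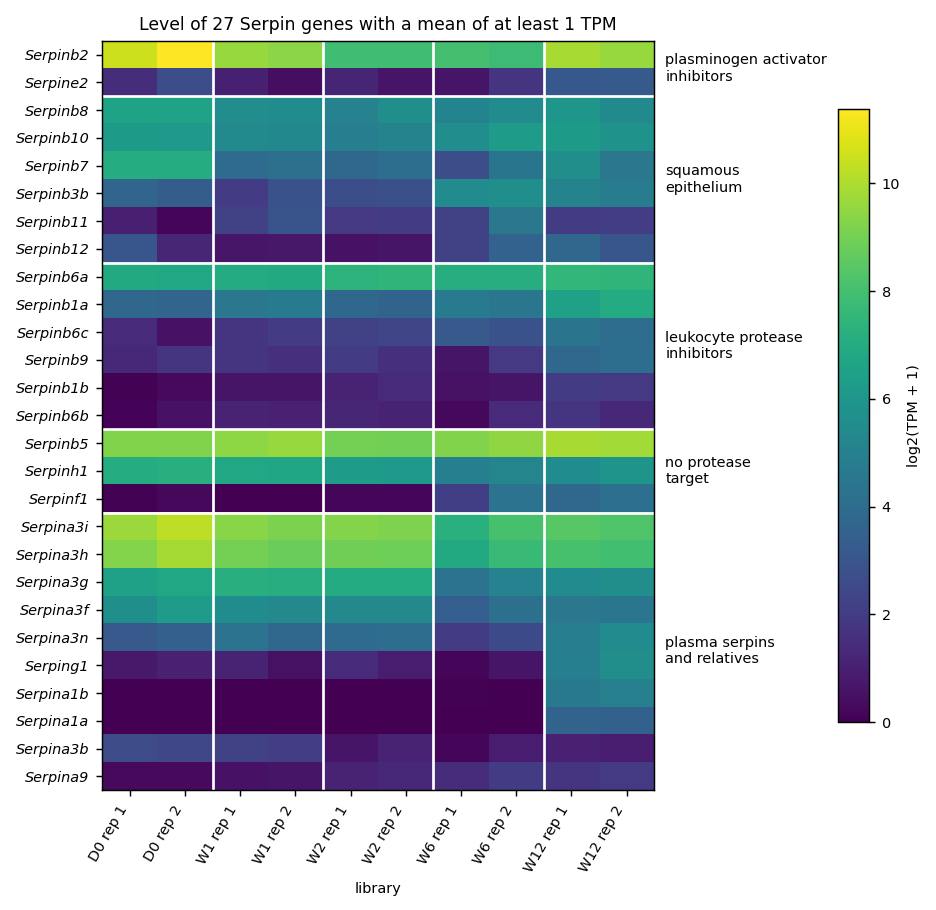
Colour gives log2(TPM + 1) of 27 tested Serpin genes (rows, by role) in each of the 10 libraries (columns, white lines between timepoints). Serpinb2, Serpinb5 and the Serpina3h and Serpina3i pair are the brightest rows, and Serpina1a and Serpina1b are dark until W12.

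Of the 64 members, 28 reached an average of 1 TPM across the 10 libraries and entered the limma test on log2(TPM + 1), in which P values were adjusted over all 13110 such genes. Against D0, 23 of the 28 differed at W12, 14 higher and 9 lower, where 43% of all tested genes differed (17.9% higher and 25.1% lower). At W6 16 of 28 differed, 6 higher and 10 lower, against 32.4% of all genes (18.3% higher and 14.1% lower). Without D0 replicate 2 the counts were 21 at W12, 13 at W6 and 10 at W2. The W6 changes of Serpina3n, Serpinb11 and Serpinb1a (from 0.82, adjusted P = 0.015, to 0.75 and 0.0709) did not pass without it. At W2 Serpina9 and Serpinb6c no longer passed and Serpinb12, lower, newly did. Those of Serpina3b, Serpina3f, Serpina3g, Serpina3h, Serpina3i, Serpina9, Serpinb2, Serpinb3b, Serpinb6c, Serpinb7, Serpinb8, Serpinf1 and Serpinh1 at W6, and of Serpinb2, Serpinb7 and Serpinb10 at W2, still passed without it, with adjusted P values of 0.0327 or less. The shares of all genes given above are from the fit of all 10 libraries. They were not counted for each contrast without D0 replicate 2. The median log2 change of the 28 was −0.26 at W6 and 1.15 at W12, against 0.08 and −0.08 over all tested genes. Of the 28 genes, 7 had a mean under 1 TPM over D0, W1 and W2 and entered the test only through later libraries. Their rise is part of the median of 1.15 at W12, so neither that rise nor that median is counted as support. Of the other 21, 7 were higher and 9 lower at W12 with all 10 libraries. The calls of Serpinb7, Serpinb8 and Serpine2 at W12 changed without D0 replicate 2, as given below. The 28 genes had their highest mean at D0 in 9 cases, at W1 in 1, at W6 in 2 and at W12 in 16. The 16 include the 7 genes that entered only through later libraries. Lowest means fell most often at W6 (11 genes).

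Early counts were smaller and moved as single libraries were left out, among them libraries outside the contrast. At W1 6 of 28 members differed from D0, 1 higher and 5 lower, against 9.89% of all genes (5.79% higher and 4.1% lower), and the count was 3 without D0 replicate 2 or either W2 library and 1 without either W1 library. At W2 11 differed, 4 higher and 7 lower, against 15.7% of all genes (9.06% higher and 6.64% lower), which became 4 without W2 replicate 1 and 5 without W2 replicate 2. Between W2 and W6 11 differed, 5 higher and 6 lower at W6, against 16.3% of all genes (7.99% higher and 8.31% lower), and 2 or 3 did so without W2 replicate 1 or 2. Between W6 and W12 15 differed, all 15 higher at W12, against 20.2% of all genes (6.66% higher and 13.5% lower). Of these 15, 4 averaged under 1 TPM without W12 and passed the filter only through it, and of the 23 members that averaged 1 TPM or more without W12, 11 were higher and 0 lower. The count of 15 became 9 without W6 replicate 1 or W12 replicate 1 and 8 without W12 replicate 2. limma's F test of the 4 later timepoints passed for 27 of 28 members, all but Serpinb6b (57.5% of all genes), and 26 passed in at least 1 contrast with D0 (57.4% of all genes); the other two were Serpinb12 and Serpine2. Without D0 replicate 2 the F test passed for 25 (56.5% of all genes), and 26 passed in at least 1 contrast (39.5%).

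**Figure D2:**
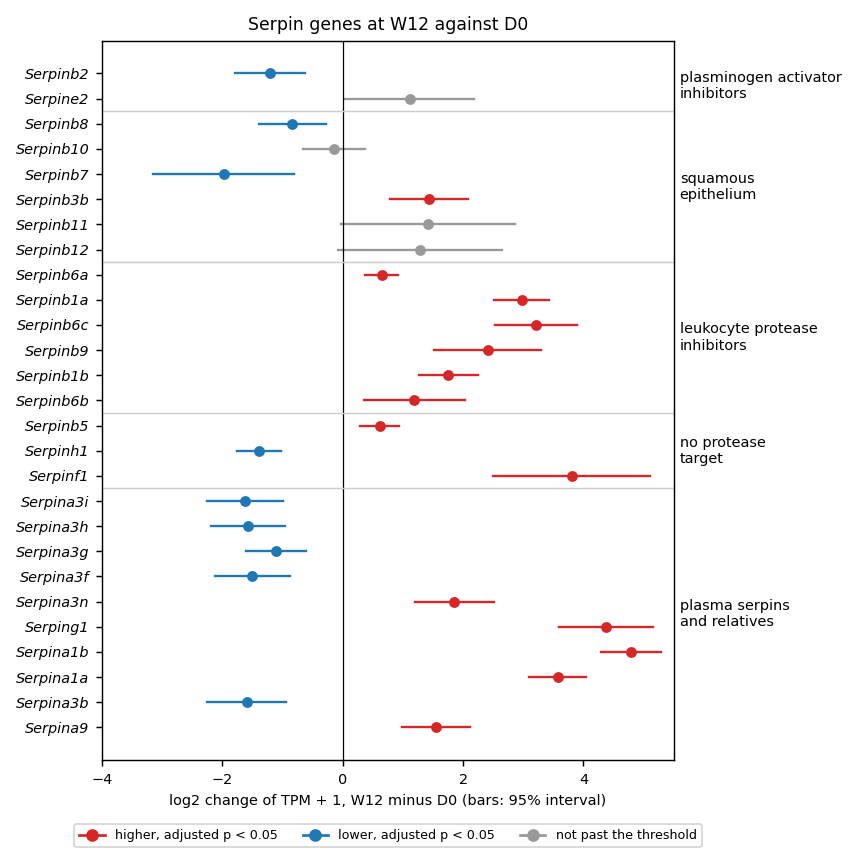
Points give the log2 change of TPM + 1 at W12 against D0 for 27 tested genes, grouped by role, with 95% intervals from the limma fit; red is higher, blue lower, both at an adjusted P under 0.05, and grey did not pass. All 6 inhibitors of leukocyte proteases lie to the right of 0, and the plasma group divides into 5 lower and 5 higher genes.

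Among inhibitors of plasminogen activators, Serpinb2 (PAI-2, an inhibitor of urokinase, chr1:107511423-107535478) was the most abundant Serpin gene at D0 and fell soon after induction. It stood at 1474 and 2673 TPM at D0, 779 and 681 at W1, 238 and 238 at W2, 257 and 219 at W6, and 943 and 780 at W12. Every later library lay below both D0 libraries, and W12 lay above W2 and W6. The log2 change against D0 was −3.05 at W2 (SE 0.26, adjusted P = 0.000237), −3.06 at W6 (adjusted P = 0.00012) and −1.21 at W12 (SE 0.26, adjusted P = 0.00592), and from W6 to W12 it rose by 1.85 (adjusted P = 0.00239). Without D0 replicate 2, the higher of the D0 pair, the changes were −2.63 at both W2 and W6 and −0.78 at W12 (adjusted P = 0.0138 at W12). In a fit of the 4 libraries of D0 and W12 alone the W12 change had an adjusted P of 0.0522.

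Serpine2 (protease nexin-1), a secreted inhibitor of thrombin and urokinase, was present at a few TPM. It was at 1.81 and 5.40 TPM at D0, under 1.3 in each W1 and W2 library, 0.56 and 2.33 at W6, and 7.85 and 8.46 at W12. Its log2 change at W12 against D0 was 1.11 (SE 0.47, adjusted P = 0.0866) and passed without D0 replicate 2, the higher D0 library (1.71, adjusted P = 0.0365). It was higher at W12 than at W6 by 2.01 (adjusted P = 0.0201), a call that did not hold without W6 replicate 1 (adjusted P = 0.0956), W12 replicate 1 (0.106) or W12 replicate 2 (0.0924). The endothelial markers were also high in the W12 libraries, at the sums given above, and their part in the level of Serpine2 was not tested.

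Of 14 genes listed for plasminogen activation outside the family, 11 were tested and at W12 4 were higher and 4 lower than at D0 (43% of all genes). Plaur, the urokinase receptor, rose from 0.775 and 0.578 TPM at D0 to 23.1 and 36.8 at W12 (log2 change 4.17, SE 0.28, adjusted P = 2.16e-05). It averaged 0.717 TPM over the 8 libraries without W12, so it passed the filter only through W12, where it is high. F3, the tissue factor, went from 16.7 and 3.71 to 102 and 118 TPM (3.60, SE 0.54, adjusted P = 0.00119). The protease-activated receptors F2rl1 (−2.21, SE 0.25, adjusted P = 0.000285) and F2r (−2.10, SE 0.24, adjusted P = 0.000331) were lower. Without D0 replicate 2, 4 were again higher and 4 lower, and the changes were 4.09 for Plaur, 2.65 for F3, −1.90 for F2rl1 and −1.86 for F2r, with adjusted P values of 0.00293 or less.

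**Figure D3:**
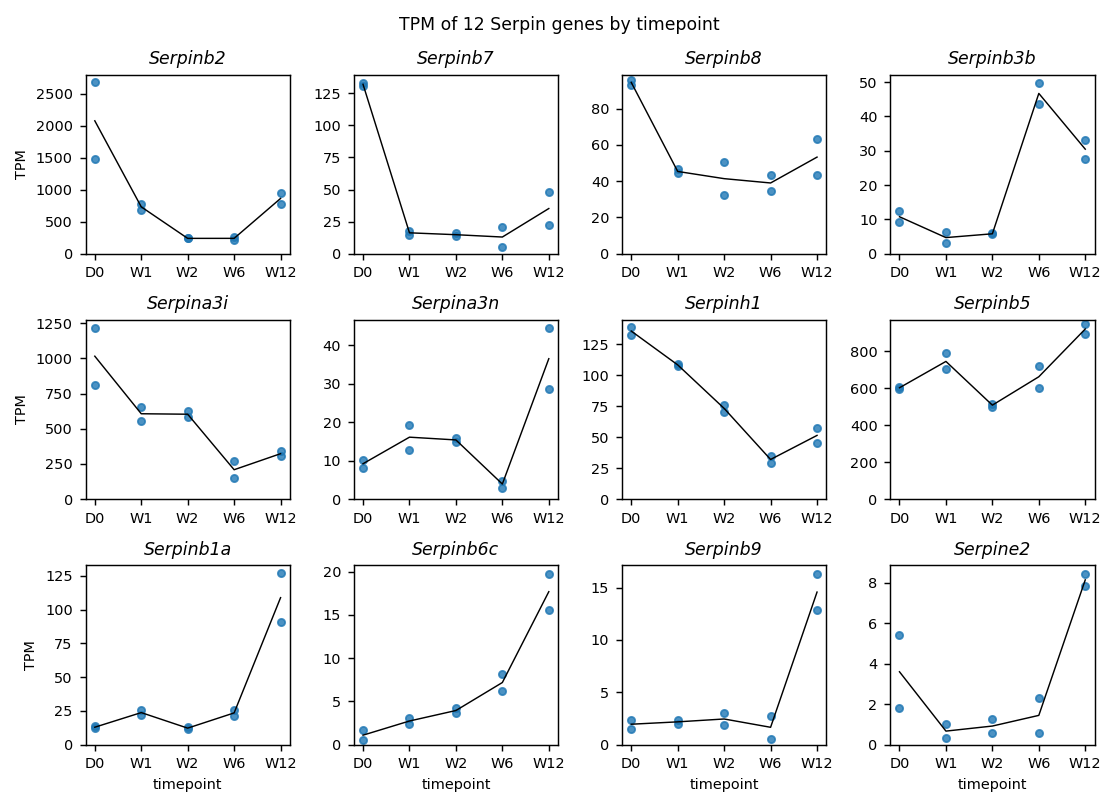
TPM of 12 Serpin genes at D0, W1, W2, W6 and W12; points are the 2 libraries of a timepoint, lines join their means, and each panel has its own axis from 0. Serpinb2, Serpinb7 and Serpinb8 are highest at D0, Serpinb3b peaks at W6, and Serpinb1a, Serpinb6c and Serpinb9 are highest at W12.

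Inhibitors of squamous epithelia, 10 clade B genes listed together with Serpina12 of clade A, had 6 tested members of 11, all of clade B. At W12 1 of the 6 was higher and 2 were lower (1 and 0 without D0 replicate 2), where 43% of all tested genes differed. Serpinb7, the gene of the inhibitor lost in Nagashima-type palmoplantar keratosis, lies at chr1:107399655-107452689. Its levels were 133 and 131 TPM at D0, 14.9 and 17.6 at W1, 13.4 and 16.1 at W2, 5.49 and 20.4 at W6, and 48.4 and 22.0 at W12. No later library reached the D0 level, and the log2 change was −3.08 at W2 (adjusted P = 0.00523) and −3.50 at W6 (adjusted P = 0.00169). At W12 it was −1.98 (SE 0.51, adjusted P = 0.0143), with an adjusted P of 0.0624 without D0 replicate 2 and 0.11 without W12 replicate 2. Serpinb8, an inhibitor of furin in the epidermis (chr1:107590006-107610484), was at 95.7 and 93.4 TPM at D0 and between 32.3 and 63.4 in the 8 later libraries. It was lower at W6 (−1.27, adjusted P = 0.00607) and at W12 (−0.84, SE 0.25, adjusted P = 0.0236), and the W12 call was lost without D0 replicate 1 (adjusted P = 0.0642), D0 replicate 2 (0.0788) or W12 replicate 2 (0.16).

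Serpinb3b, 1 of the squamous cell carcinoma antigen-like genes that inhibit cathepsins and serine proteases, moved the other way. It was at 12.3 and 9.22 TPM at D0, 2.96 and 6.39 at W1, 5.69 and 5.86 at W2, 43.5 and 49.9 at W6, and 33.2 and 27.7 at W12. Both late timepoints lay above all earlier libraries, and the log2 change was 2.03 at W6 (adjusted P = 0.00137) and 1.43 at W12 (SE 0.28, adjusted P = 0.00458, or a change of 1.24 and an adjusted P of 0.0337 without D0 replicate 2, the order also used for later genes). From W2 to W6 it rose by 2.81 (adjusted P = 0.00166). Its near relatives Serpinb3a and Serpinb3c, under the filter, also had their highest mean at W6, at 2.67 and 1.02 TPM for Serpinb3a and 0.977 and 1.11 for Serpinb3c, although Serpinb3a at W12 (1.26 and 1.27) lay above the lower of its W6 libraries. Of the 31-base stretches in Serpinb3b transcripts 35.4% occur in another gene, so reads of these genes may have been divided among them. Differentiation markers (Krt1, Krt10, Krtdap, Ivl, Lor and Flg) summed to between 1807 and 6876 TPM in libraries up to W2 and between 11591 and 13222 at W6 and W12, most of the increase being Krtdap. Ivl was also higher in each late library than in any earlier one, while Krt10 was at 1335 and 871 TPM at D0 and between 568 and 1041 at W6 and W12, and Lor went from 15.4 and 19.4 TPM at D0 to 2.00 and 2.05 at W12. The part of these genes in the rise of Serpinb3b was not tested.

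Serpinb10, Serpinb11 and Serpinb12 lie in the same cluster and ended near or above their D0 levels. Serpinb10, annotated as a polymorphic pseudogene that overlaps Serpinb2, was at 73.6 and 67.6 TPM at D0, 27.8 and 32.8 at W2, and 72.8 and 55.2 at W12. The W2 decrease (−1.20, adjusted P = 0.00977) was lost without W2 replicate 1 (adjusted P = 0.0788), and the W12 change of −0.15 (SE 0.23) did not pass. Serpinb11 was at 0.978 and 0.164 TPM at D0, 3.59 and 21.7 at W6, and 2.94 and 3.15 at W12, with a rise at W6 (2.75, adjusted P = 0.0122) that failed without D0 replicate 2 (adjusted P = 0.0812). Its W12 change (1.41, SE 0.63, adjusted P = 0.102) passed without W6 replicate 1 (adjusted P = 0.00959) or W6 replicate 2 (0.00976). Serpinb12 was at 7.16 and 1.33 TPM at D0, between 0.482 and 0.675 at W1 and W2, 3.78 and 11.0 at W6, and 12.7 and 7.19 at W12. Its D0 libraries differ more than 5 times, and its W12 change (1.28, SE 0.60, adjusted P = 0.113) passed without D0 replicate 1 (2.19, adjusted P = 0.0127).

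Inhibitors of leukocyte and granule proteases had 6 tested members of 16, all on chromosome 13, and all 6 were higher at W12 than at D0 (17.9% of all tested genes were), or 5 of 6 without D0 replicate 2; Serpinb1b and Serpinb6b passed the filter only through W12. Serpinb1a, which blocks neutrophil elastase and cathepsin G, lies at chr13:32842092-32851185. Its levels were 13.4 and 12.2 TPM at D0, 21.8 and 25.6 at W1, 13 and 11.3 at W2, 25.7 and 21.2 at W6, and 90.8 and 127 at W12. Both W12 libraries stood over 3 times above every other, with a log2 change of 2.97 (SE 0.20, adjusted P = 2.2e-05, or 2.91 and 0.000381 without D0 replicate 2) and a rise from W6 of 2.15 (adjusted P = 0.00026). Serpinb6c was at 1.68 and 0.49 TPM at D0, 2.33 and 3.12 at W1, 3.66 and 4.22 at W2, 8.17 and 6.19 at W6, and 19.8 and 15.6 at W12, with changes of 2.02 at W6 (adjusted P = 0.00176) and 3.22 at W12 (SE 0.30, adjusted P = 0.000106, or 2.79 and 0.000633 without D0 replicate 2).

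Serpinb9, the inhibitor of granzyme B that shields cells from their own or foreign cytotoxic granules, was between 0.563 and 3.01 TPM in all libraries up to W6 and at 12.8 and 16.3 at W12. Its log2 change at W12 was 2.41 (SE 0.39, adjusted P = 0.00177, or 2.62 and 0.0082 without D0 replicate 2), and from W6 to W12 it rose by 2.68 (adjusted P = 0.00313). Serpinb6a, a broad inhibitor of trypsin-like proteases, was abundant throughout, at 118 and 110 TPM at D0 and 182 and 176 at W12 (0.64, SE 0.12, adjusted P = 0.00318, or 0.59 and 0.0114 without D0 replicate 2). Serpinb1b went from 0.056 and 0.218 TPM at D0 to 2.96 and 2.69 at W12 (1.75, SE 0.22, adjusted P = 0.000475, or 1.86 and 0.00255 without D0 replicate 2). Serpinb6b was at 0.0757 and 0.467 TPM at D0 and 2.36 and 1.43 at W12 (1.19, SE 0.37, adjusted P = 0.0301), a call that was lost without D0 replicate 1 (adjusted P = 0.121), D0 replicate 2 (0.0547), W12 replicate 1 (0.156) or W12 replicate 2 (0.0529). None of the 16 listed leukocyte serine proteases reached a mean of 1 TPM. The 6 leukocyte markers summed to between 0.813 and 2.49 TPM in every library, with Ptprc, which encodes CD45, at 0.327 TPM or less. The endothelial markers were also high in the W12 libraries, at the sums given above, as these 6 serpins were, and their part in these levels was not tested.

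**Figure D4:**
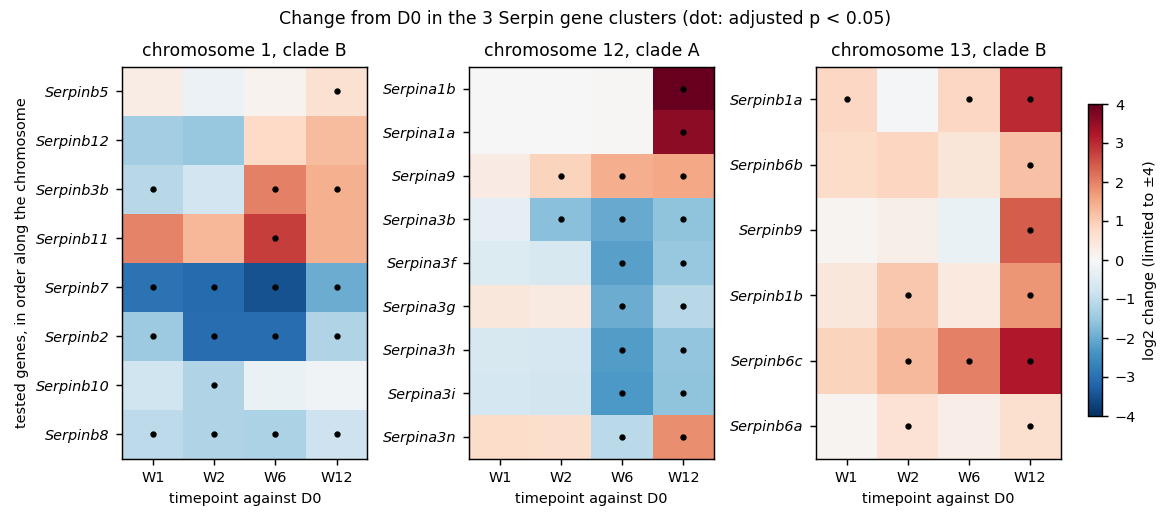
Log2 change against D0 at W1, W2, W6 and W12 of the tested genes in the 3 Serpin clusters, in their order along each chromosome; red is higher, blue lower, colours stop at 4 either way, and a dot marks an adjusted P under 0.05. Serpinb7, Serpinb2 and Serpinb8 are blue at all timepoints, Serpina3b to Serpina3i are blue at W6 and W12, and the chromosome 13 genes are red at W12.

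Among serpins without a protease target, the 3 tested genes each had a course of their own. Serpinb5 (maspin, chr1:106861173-106883348), a keratinocyte serpin studied as a tumour suppressor, was among the most abundant members in all libraries. It was at 597 and 607 TPM at D0, 701 and 788 at W1, 516 and 500 at W2, 601 and 722 at W6, and 946 and 894 at W12, with the W12 pair above all other libraries (0.61, SE 0.14, adjusted P = 0.00866, or 0.62 and 0.0209 without D0 replicate 2). Without W12 replicate 1 the adjusted P was 0.0548, and in a fit of the 4 libraries alone it was 0.0631. Serpinh1 (HSP47, chr7:99345376-99353239), the chaperone of collagen in the endoplasmic reticulum, was at 132 and 139 TPM at D0, 110 and 107 at W1, 76.4 and 70.1 at W2, 28.9 and 35.1 at W6, and 45.2 and 57.6 at W12. Its libraries did not overlap between any of these timepoints, and it was lower by −2.06 on the log2 scale at W6 (adjusted P = 9.27e-05) and −1.39 at W12 (SE 0.16, adjusted P = 0.00032, or −1.36 and 0.00256 without D0 replicate 2).

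Serpinf1 (PEDF, a secreted factor that restrains vessel growth, chr11:75409769-75422701) was at 0.201 TPM or less in each library up to W2, at 3.32 and 18.9 at W6 and at 12.8 and 16.9 at W12. All 4 late libraries lay above all 6 early ones, with log2 changes of 3.04 at W6 (adjusted P = 0.00526) and 3.80 at W12 (SE 0.57, adjusted P = 0.00122, or 3.89 and 0.00892 without D0 replicate 2). In a fit of D0 and W6 alone the adjusted P was 0.0626. Serpinf1 averaged 0.0959 TPM over D0, W1 and W2 and passed the filter only through the late libraries, where it is high. Dcn moved with it, at 1.46 TPM in W6 replicate 1, where Serpinf1 was lowest of the 4, and 51.2 in W6 replicate 2, where it was highest. The fibroblast list as a whole summed to between 0.544 and 4.06 TPM up to W2, 1.68 and 52.2 at W6, and 13.7 and 28.1 at W12, almost all of it Dcn in W6 replicate 2 and at W12, and its part in the rise of Serpinf1 was not tested.

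Of the 26 plasma serpins and their relatives, 10 were tested, and at W12 5 were lower and 5 higher, where 25.1% of all tested genes were lower and 17.9% higher. Of the 5 higher ones, Serpina1a, Serpina1b and Serping1 passed the filter only through W12 and Serpina9 only through W6 and W12, which leaves Serpina3n. The counts were again 5 and 5 without D0 replicate 2. The lower ones were the Serpina3 genes next to each other on chromosome 12, which resemble α1-antichymotrypsin. Serpina3i (chr12:104263122-104269372), second to Serpinb2 at D0, was at 811 and 1219 TPM at D0, 656 and 557 at W1, 624 and 582 at W2, 150 and 268 at W6, and 341 and 305 at W12. All W1 and W2 libraries lay below both D0 libraries and above those of W6 and W12. The change against D0 was −0.72 at W1, which did not pass (SE 0.28, adjusted P = 0.148), −2.31 at W6 (adjusted P = 0.000699) and −1.62 at W12 (SE 0.28, adjusted P = 0.00232, or −1.33 and 0.0165 without D0 replicate 2). Serpina3h, annotated as a transcribed pseudogene, was at 611 and 929 TPM at D0, 121 and 211 at W6 and 265 and 242 at W12 (−2.23 at W6, adjusted P = 0.000699; −1.57 at W12, SE 0.27, adjusted P = 0.00233). The ratio of Serpina3i to Serpina3h lay between 1.21 and 1.33 in all 10 libraries, and 25.8% of the 31-base stretches of Serpina3h occur in Serpina3i, so their levels are uncertain as separate values. The ratio of Serpina3h to Serpina3f likewise lay between 11.3 and 12.4 in all 10 libraries, with 17.3% of the stretches of Serpina3h in Serpina3f and 23.3% in Serpina3g, so the split among these 4 genes is uncertain.

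Serpina3g was at 89.1 and 114 TPM at D0, 143 and 134 at W1, 128 and 129 at W2, 19.2 and 31.8 at W6, and 44.5 and 47.8 at W12, so that its W1 and W2 libraries lay above D0 and its late ones below (−1.99 at W6, adjusted P = 0.000508; −1.11 at W12, SE 0.22, adjusted P = 0.00465). Serpina3f went from 50.4 and 78.4 TPM at D0 to 9.70 and 17.6 at W6 and 21.9 and 21.2 at W12 (−2.18 at W6, adjusted P = 0.000851; −1.50 at W12, SE 0.28, adjusted P = 0.00314). Serpina3b, at 5.35 and 4.39 TPM at D0, was at 0.586 and 1.12 by W2, 0.137 and 0.867 at W6, and 1.06 and 0.809 at W12 (−2.0 at W6, adjusted P = 0.00156; −1.60 at W12, SE 0.29, adjusted P = 0.00293). Without D0 replicate 2 the W12 changes were −1.27 for Serpina3h, −0.93 for Serpina3g, −1.19 for Serpina3f and −1.72 for Serpina3b, with adjusted P values between 0.0127 and 0.0324.

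Serpina3n (chr12:104406729-104414329), the antichymotrypsin-like gene at the end of the same cluster, departed at W12 from the other tested Serpina3 genes. It was at 8.20 and 10.2 TPM at D0, 19.3 and 12.9 at W1, 14.9 and 15.9 at W2, 3.01 and 4.83 at W6, and 28.5 and 44.5 at W12. At W6 it lay below D0 like the others (−1.07, adjusted P = 0.0219), a call that was lost without D0 replicate 2 (adjusted P = 0.117) or W6 replicate 1 (0.0979). At W12 it lay above every other library (1.85, SE 0.29, adjusted P = 0.0014, or 2.00 and 0.0068 without D0 replicate 2), with a rise of 2.92 from W6 (adjusted P = 0.000363). Serpina9, known from germinal centre B cells, was at 0.222 TPM in both D0 libraries, 1.73 and 3.03 at W6, and 2.28 and 2.88 at W12 (1.44 at W6, adjusted P = 0.00356; 1.54 at W12, SE 0.25, adjusted P = 0.00167, or 1.54 and 0.0105 at W12 without D0 replicate 2).

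Serping1, Serpina1a and Serpina1b were far higher at W12 than in any earlier library. Serping1 (C1 inhibitor, which restrains complement and the contact system, chr2:84765387-84775444) was between 0.11 and 1.65 TPM in the 8 libraries up to W6 and at 29.2 and 48.3 at W12 (4.37, SE 0.34, adjusted P = 4.55e-05, or 4.51 and 0.000607 without D0 replicate 2), 4.88 above W6 on the log2 scale (adjusted P = 6.45e-05). Serpina1b (chr12:103728156-103830373), an α1-antitrypsin gene, was listed at 0 in all 6 libraries up to W2, at 0.045 and 0 TPM at W6, and at 23.5 and 30.2 at W12 (adjusted P = 3.31e-06, or 9.28e-05 without D0 replicate 2). Serpina1a was likewise listed at 0 up to W2, at 0.0311 and 0.0138 TPM at W6, and at 11.3 and 10.5 at W12 (adjusted P = 1.24e-05, or 0.0002 without D0 replicate 2), and no fold is given against levels of 0. Of the 31-base stretches of Serpina1a, 65.2% occur in another gene, mostly Serpina1c and Serpina1b, so the split among these genes is uncertain. The 4 hepatocyte markers summed to 1.81 and 1.19 TPM at W12, nearly all of it Ttr, and to between 0.272 and 6.497 before, with Alb at 0 and 0.0263 and Apoa2 at 0 at W12. All 3 genes passed the filter through W12 only. The endothelial markers Pecam1 (26.1 and 59.8 TPM), Emcn (22.9 and 45.5), Cdh5 (1.61 and 3.64) and Kdr (1.16 and 3.40) appeared in the same 2 libraries, and their part in these levels was not tested. In bulk RNA, more cells of a type and more RNA per cell cannot be told apart.

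**Figure D5:**
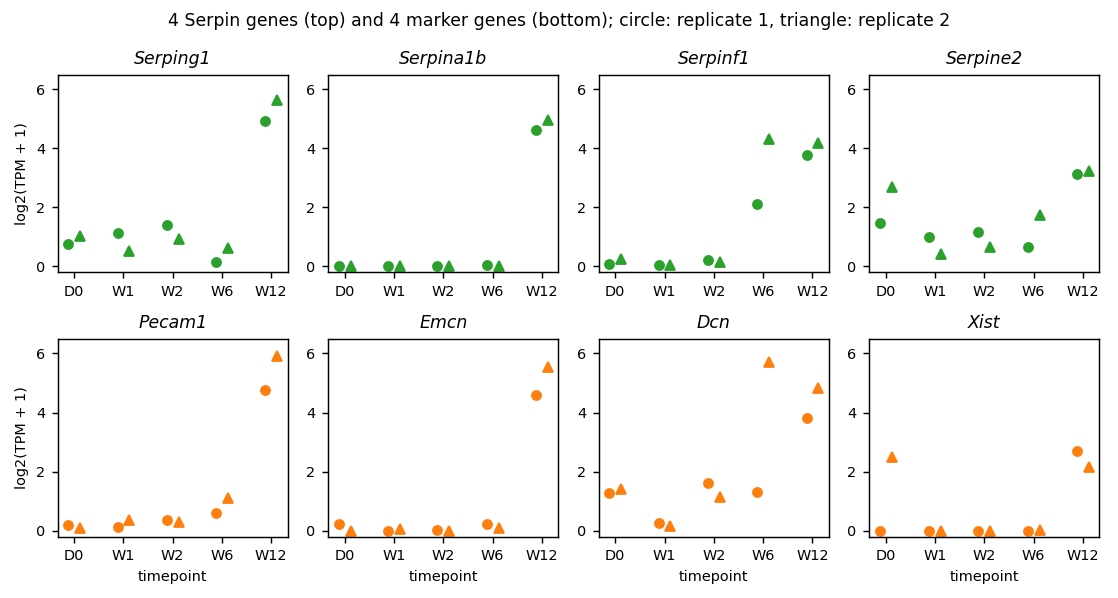
Log2(TPM + 1) by timepoint of Serping1, Serpina1b, Serpinf1 and Serpine2 (top) and of the endothelial genes Pecam1 and Emcn, the fibroblast gene Dcn and Xist (bottom); circles are replicate 1 and triangles replicate 2. Serping1 and Serpina1b are high only where Pecam1 and Emcn are, at W12, and Serpinf1 and Dcn are both higher in W6 replicate 2 than in W6 replicate 1.

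The other 36 members were under the filter and had no test. At 1 TPM or more in some library were 9 of them. Serpina3m was highest, at 6.10 TPM in D0 replicate 2 and 0.0713 in D0 replicate 1, and at 1.03 and 1.28 at W12. Serpinb9b was at 0.41 and 2.94 TPM at W12 and under 0.1 before. Serpina5, the protein C inhibitor, was at 2.84 and 1.03 TPM at D0, 0.82 and 0.413 at W1, and 0.126 and 0.0587 at W12, the lowest of its levels together with those of W6. Serpina1d (1.69 and 2.25 TPM) and Serpina1e (0.494 and 1.08) were above 0 at W12 only, as were the tested Serpina1 genes in all but traces. The rest of these 9 were Serpinb3a and Serpinb3c, described above, Serpina3k (highest 1.35 TPM, at W12) and Serpinc1, antithrombin (highest 1.09 TPM, at W6).

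A further 13 members peaked between 0.1 and 1 TPM. They were Serpina1c (0.976 TPM), Serpinb3d (0.816), Serpina3j (0.561), Serpina3c (0.486), Serpinb1c (0.444), Serpinb9e (0.376), Serpini1 (0.335), Serpina12 (0.319), Serpinb6e (0.262), Serpina11 (0.261), Serpinb6d (0.188), Serpind1 (0.121) and Serpinb9h (0.106). The 14 that stayed under 0.1 TPM were Serpinb9g, Serpinb9f, Serpina3a, Serpinb9c, Serpina16, Serpinb13, Serpinf2, Serpini2, Serpine3, Serpina10, Serpinb9d and Serpina1f, with Serpina6 and Serpina7, the carriers of steroid and thyroid hormones, at 0 in all libraries. Serpinb13 (headpin), like Serpinb7 and Serpinb12 a gene of the chromosome 1 cluster that is known from stratified epithelia, was thus at or near 0 throughout.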

How the data were processed

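Gene-level RNA-seq of 10 time-course libraries was analysed. The authors deposited TPM per gene, made with Salmon 1.4.0 and Tximport 1.12.3 (versions from the submitters' processing notes) with GENCODE transcripts of GRCm38 and an added transgene entry as the index. TPM hold no depth, so the precision that depth gives is unknown. A table of the authors' comparison of SOX9+ with SOX9neg embryonic placode cells (means of normalized counts, log2 fold changes, standard errors, test statistics and P values) was not used here. Timepoint and replicate came from the sample titles, and nothing in them ties same-numbered libraries to a shared mouse, litter or day.

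Genes that averaged 1 TPM or more were tested on log2(TPM + 1) with limma 3.58.1 in R 4.3.3, in 1 fit of the 5 timepoint means (eBayes with trend, Benjamini-Hochberg over the 13110 genes tested). A gene differed at an adjusted P under 0.05, two-sided. The study tested counts with DESeq2, which TPM do not permit. The added 1 makes the change of low genes look smaller, and with 2 libraries a timepoint the spread is shared across timepoints. Where a library was left out, the lone library of its timepoint was assumed to vary like the others. The fit was tested on simulated data.

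Members that passed this filter were named by role, except 1 that is counted but not reported here, with TPM per library and the W12 test, and the others by their highest TPM. Outside the family, listed genes with the largest changes in each direction at W12 (up to 2 each) were named. Members, roles, lists and letters searched in promoters were chosen with earlier results of these data known. Shared 31-base stretches were counted in GENCODE M21 transcripts on GRCm38, the build of the files in an earlier release, which also gave positions. Promoters are RefSeq's. Python 3.11.15 (numpy 2.4.6, pandas 2.3.3, matplotlib 3.10.9) was used for other steps. Alternatives were quantile normalization, median-ratio scaling, a pseudocount of 0.1, a filter at 5 TPM or at anything above 0, eBayes with no trend, the 4 libraries compared alone, a minimum change of 1 on the log2 scale, the replicate block, and each replicate left out. Crossed pairings, the counts by role, of the F test and of genes outside the family without D0 replicate 2, and the count at W12 against W6 over members that average 1 TPM or more without W12 were added after the data were seen.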

Additional observations from a re-analysis of the deposited data

How the results depend on the processing

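Counts of Serpin genes that differed from D0 at W12 and W6 stayed within 1.5 times of 23 and 16 under every alternative run, from 20 to 24 and from 13 to 18 as each replicate was left out, and at 29 and 18 with all genes above 0 TPM. The other counts moved more. With all genes above 0, none differed at W1 against D0 (limma, with 17 of 62 members at an unadjusted P under 0.05), 6 at W2 against D0 and 7 between W2 and W6, where 6, 11 and 11 are reported. With the 4 libraries compared alone, 2 differed at W1, 7 at W2, 6 between W2 and W6, and 9 between W6 and W12 (15 reported). A mean of at least 5 TPM left 7 at W2. Leaving out each replicate gave 1 to 7 at W1, 4 to 14 at W2, 2 to 12 between W2 and W6, and 8 to 19 between W6 and W12. The stricter filter tests fewer members and the smaller fits use fewer libraries; other causes were not tested. Median-ratio scaling changed the W1 split from 1 higher and 5 lower to 0 and 6, and the pseudocount of 0.1 to 2 and 4. Over all genes the median log2 change between W6 and W12 was −0.16 as deposited and −0.02 after median-ratio scaling, and 0.09 and −0.01 at W1 against D0; no named gene changed direction with scaling.

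The replicate numbers did not pair the libraries, since correlations of the deviations of same-numbered libraries ran from −0.129 to 0.182 over 10 pairs of timepoints. With the replicate block 2 members differed at W1, 11 at W2, 16 at W6, 23 at W12, 10 between W2 and W6 and 13 between W6 and W12. Crossing the numbers, where the correlation was under −0.1, gave 6 at W1, 16 at W6 and 14 between W6 and W12. Of the values for single genes under an alternative, 906 kept their direction and side of the threshold, 30 no longer passed and 6 newly passed. Only Serpinb10 at W12 changed sign, from −0.15 to 0.044 without W12 replicate 2 (−0.35 to 0.044 over the replicates left out), and it passed in no case.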

Other observations

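Genes of proteases and of inhibitors outside the family were compared at W12 with D0 in the same limma fit. Of 8 tested cysteine cathepsins, the targets of several clade B serpins, 3 were higher and 0 lower, where 43% of all tested genes differed (17.9% higher and 25.1% lower). Without D0 replicate 2 the count was again 3 and 0, with Ctsf (0.63, adjusted P = 0.0457) in place of Ctsl. Ctsc, which activates granule serine proteases, was at 63.1 and 32.3 TPM at D0 and 264 and 341 at W12 (log2 change 2.70, SE 0.28, adjusted P = 0.000179), and Ctsl rose by 1.16 (SE 0.41, adjusted P = 0.047), which did not pass without D0 replicate 2 (adjusted P = 0.15). Of 15 tested serine proteases of the epidermis, 6 were higher and 3 lower (5 and 4 without D0 replicate 2), beside the same shares of all genes. Klk12 and Klk13 averaged under 1 TPM over D0, W1 and W2 and passed the filter only through later libraries, where they are high, and of the other 13 genes 4 were higher and 3 lower. The kallikrein Klk6 went from 1.21 and 0.453 TPM to 134 and 189 (6.48, SE 0.51, adjusted P = 5.03e-05) and Klk13 from 0.696 and 0.0414 to 10.4 and 11.2 (3.15, SE 0.31, adjusted P = 0.000149). Htra1 (−1.60, SE 0.17, adjusted P = 0.000182) and Tmprss13 (−1.52, SE 0.25, adjusted P = 0.00192) were lower.

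Of 16 tested protease inhibitors that are not serpins, 11 were higher and 2 lower at W12, with or without D0 replicate 2. Of these 16, 4 averaged under 1 TPM over D0, W1 and W2 and passed the filter only through later libraries, where they are high. Of the other 12, 7 were higher and 2 lower. Among all tested genes, 17.9% were higher and 25.1% lower at W12 against D0. Slpi, an inhibitor of neutrophil elastase, was at 0.527 and 0.148 TPM at D0, 141 and 66.9 at W6, and 1126 and 1566 at W12 (9.97, SE 0.52, adjusted P = 6.81e-06). Timp1, an inhibitor of matrix metalloproteases, went from 0.127 and 0.0286 TPM to 76.1 and 74.4 (6.15, SE 0.19, adjusted P = 6.64e-07). Timp3 (−1.49, SE 0.26, adjusted P = 0.00242) and Spint2, an inhibitor of matriptase (−0.89, SE 0.14, adjusted P = 0.00154), were lower. Timp1 is 1 of the 4 that passed only through later libraries. Apart from Ctsl, and Ctsf, which passed only without D0 replicate 2, the genes named here passed without D0 replicate 2 in the same direction, with adjusted P values of 0.0181 or less. Ctsf and Klk12 were chosen after their values were seen.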
